A study of Mus musculus with 24 samples.

Results

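Hippocampal gene expression after contextual fear conditioning was set against expression after exposures that lack the pairing of a place with a later shock. The comparison used the arrays titled young_fear (4 arrays) against the arrays titled young_context or young_shock_red, the second described as shock-context exposure, pooled (8 arrays), 12 of the 24 arrays of the series. Fear-conditioned mice explored a chamber for 3 min and then received 1 foot shock of 0.7 mA for 2 s. Context mice had the chamber without a shock, and shock-context mice were shocked as soon as they entered it and explored only afterwards. The hippocampi of all 3 groups were taken 1 h later. A further group of 4 naive mice, handled but never trained, was used for side comparisons. All 4 groups were C57Bl/6 mice aged 3 months, with no genetic alteration stated, and each mouse was hybridised to its own 1-colour Agilent array, so an array stands for a mouse. A probe entered if the scanner software marked it as well above background on all 12 arrays, which left 29704 of 41174 probes. They stand for 15575 of the 19841 genes on the array, and 6784 of these genes had at least 2 such probes.

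Contextual fear conditioning is a form of associative learning that needs the hippocampus: the animal comes to treat a place as a predictor of pain. Firing neurons switch on immediate early genes such as Fos and Arc within minutes. Protein kinases then relay the synaptic signal, and actin remodelling and histone acetylation accompany the storage of the memory. The hippocampus borders on the thalamus and on the choroid plexus of the ventricles, and it holds glia and vessels beside its neurons, so markers of these tissues and cells were followed too.

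The fear and naive arrays were scanned in a first run and all exposed arrays in a second run, so that in the comparison of fear with exposures run and group cannot be told apart. The 75th percentile of the processed signal was 1543 to 2137 units on fear arrays and 3101 to 8369 on exposed arrays, with 89.4 to 93.8% of probes well above background on fear arrays and 75.5 to 81.7% on exposed arrays. After quantile normalization Pearson's r over probes was 0.9894 to 0.9976 between fear arrays, 0.9789 to 0.9977 between exposed arrays and 0.9195 to 0.959 between a fear and an exposed array. Fear arrays 1 and 2 resembled each other most (r = 0.9976), as did fear arrays 3 and 4 (0.9968), against 0.9894 to 0.9918 across these pairs. The precision of every value is limited by the number of arrays. The tissue label was set against hippocampal markers: Prox1, C1ql2 and Dsp (dentate granule cells), Calb1 (dentate and CA1), Wfs1, Fibcd1 and Pou3f1 (CA1), Grik4 (CA3), Neurod6 (pyramidal neurons) and Zbtb20 (excitatory neurons) each had a probe well above background on all 12 arrays. The same held for 15575 of all 19841 genes, for 26 of 28 thalamus markers and for 29 of 29 neocortex markers. Presence of these markers therefore cannot tell the hippocampus from its neighbours.

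Most of the transcriptome differed between fear-conditioned and exposed mice. Of the 29704 probes, 20941 passed limma's moderated test at an adjusted p of 0.05 (70.5%), 11260 of them higher (37.9%) and 9681 lower (32.6%) in fear-conditioned mice. The values of the 4 fear arrays lay wholly outside those of the 8 exposed arrays for 52.1% of probes. A change of at least 1 on the log2 scale was reached by 2590 probes that rose (8.72%) and 2695 that fell (9.07%). Within the first run, fear against naive mice, 16521 probes passed (55.6%). Naive against exposed mice, which like the fear comparison crosses the runs but involves no fear conditioning, gave 19873 (66.9%). That comparison also sets handling against the exposures, so it does not measure the run alone. These comparisons share arrays, so their values are given side by side and not counted together.

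Because the run moves with the group, the probes of 1 gene were read against each other. Of the 6784 genes with several probes, 3455 had changes of the same sign at all of them (50.9%). All probes rose in 1063 genes (15.7%) and all fell in 746 (11.0%), while 1728 genes (25.5%) had probes called in both directions. Of the 4111 genes with at least 2 called probes, 42% were split in this way. The share with 1 sign was 60.9% in genes with 2 probes, 36.1% with 3 and 17.8% with 4 or more. Random signs would also give a share that declines with the number of probes, and the share they would give was not computed. Within the first run 51% of genes with several probes had 1 sign, and 1127 were split, 37% of those with at least 2 called probes. Between naive and exposed mice 49.9% had 1 sign, and 1491 were split (41.2%). A gene is called higher or lower below only where every one of its probes passed that way. Over all genes, including those with 1 probe, 31.3% were higher and 19.6% lower.

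Ranked by the smallest change among a gene's probes, the largest rises that all probes shared were in Mapk15, Tcf7l2, Muc5ac, Cyp2c37, Fv1, Prkcd, Marcksl1, Krt1, Tbc1d12 and Cyp2d10. Prkcd encodes the delta isoform of protein kinase C, a signalling kinase abundant in thalamic neurons. Its downstream probe (chr14:31409035-31409094, mm9, minus strand) had a normalized log2 signal of 13.30, 13.37, 13.61 and 13.83 on the fear arrays, against a range of 11.06 to 11.50 with a median of 11.33 on the exposed arrays. The groups did not overlap, and Prkcd was 4.63-fold higher after fear conditioning (log2 change 2.21 ± 0.11 SE, n = 4 and 8 arrays, limma adjusted p = 3.13e-09). The second Prkcd probe read 11.47, 11.38, 11.64 and 11.75 on fear arrays and 9.68 to 10.31 on exposed arrays (median 9.97), a rise of 1.56 ± 0.11. Within the first run both Prkcd probes also rose over naive mice, by 2.13 and 1.95. This second probe is printed as an example of a gene whose probes moved together; capitals mark G and C, and its 60 bases join across an intron.
Prkcd, chr14:31414383-31414970, minus strand: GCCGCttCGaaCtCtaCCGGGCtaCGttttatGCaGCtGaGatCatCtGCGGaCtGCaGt

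Tcf7l2, a transcription factor of Wnt signalling and a thalamic marker, rose at all 3 of its probes, by 2.93 ± 0.22, 2.01 ± 0.14 and 1.75 ± 0.11. At its brightest probe (chr19:56007586-56007645, plus strand) the fear arrays read 12.76, 12.72, 12.74 and 12.63 and the exposed arrays 10.61 to 11.26 with a median of 10.98. The groups were far apart at each Tcf7l2 probe. Within the first run 2 of the 3 probes rose as well, by 2.07 and 1.57, whereas the probe farthest upstream was at 0.03 against naive mice (adjusted p = 0.844).

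Marcksl1 encodes an actin-binding substrate of protein kinase C. Its probe at chr4:129192745-129192804 read 13.66, 13.74, 13.68 and 13.65 on fear arrays and 11.81 to 12.36 on exposed arrays (median 12.17), without overlap. It rose by 1.53 ± 0.09 (adjusted p = 9.6e-09), and the second Marcksl1 probe rose by 1.49 ± 0.08. The rises over naive mice within the run were 1.84 and 1.61. Tbc1d12, which carries a domain found in Rab GTPase regulators, rose by 1.66 ± 0.08 and 1.43 ± 0.14 against exposed mice and by 1.33 and 1.77 against naive mice.

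The other large rises were not matched within the first run. Mapk15, an atypical MAP kinase, rose by 2.46 ± 0.19 and 1.78 ± 0.27 against exposed mice, while its values against naive mice were -0.27 and -0.17 (adjusted p = 0.363 and 0.707). Muc5ac, a secreted mucin, rose by 2.04 and 1.75 against exposed mice and stood at -0.29 and -0.18 against naive mice. The cytochrome P450 genes Cyp2c37 (1.76 and 1.70) and Cyp2d10 (1.96 and 1.41) and Fv1, a retrovirus restriction gene (2.14 and 1.61, at overlapping probes), had negative values against naive mice, from -1.03 to -0.46. Of these 6 values the ones past the threshold were both Fv1 probes (adjusted p = 0.0153 and 0.0311), 1 Cyp2c37 probe (0.0312) and 1 Cyp2d10 probe (0.0301). Krt1, a keratin, rose by 1.81 and 1.46, but its probes are annotated to opposite strands, so that the gene measured is uncertain.

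By the same ranking the largest shared falls were in Steap1, Clic6, Col8a1, Slc7a14, Syt10, H4c4, Hyal1, Elovl7, Pon3 and Jakmip3. Steap1, a metalloreductase gene expressed in the choroid plexus, had values of 7.13, 7.49, 8.49 and 8.52 on fear arrays and 11.91 to 13.31 on exposed arrays (median 12.57) at chr5:5736369-5736428. The fear arrays lay below every exposed array, a 26.2-fold lower level (log2 change -4.71 ± 0.29, adjusted p = 1.71e-08). The second Steap1 probe fell by 4.35 ± 0.23, and the changes against naive mice were -4.87 and -4.50. Clic6, a chloride channel family gene also marking choroid plexus, read 10.33, 10.42, 11.83 and 11.69 on fear arrays and 14.38 to 15.61 on exposed arrays (median 14.95) at chr16:92541363-92541422. Its groups did not overlap and its probes fell by 3.93 ± 0.30 and 3.11 ± 0.30. In both genes fear arrays 3 and 4 stood above fear arrays 1 and 2.

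Col8a1, a collagen chain, fell at its 2 probes (log2 changes -3.88 and -2.59), as did Slc7a14, a lysosomal transporter family gene (-3.12 and -2.58), and Syt10, a synaptotagmin (-3.08 and -2.55). Elovl7, a fatty acid elongase, read 8.52, 8.89, 9.01 and 8.98 on fear arrays and 11.14 to 11.48 on exposed arrays (median 11.34) at chr13:109074294-109074353. It fell by 2.48 ± 0.10 there and by 2.25 ± 0.11 at its second probe. The hyaluronidase gene Hyal1 fell by 2.54 and 2.30 at probes that overlap each other, and Pon3, a paraoxonase, by 2.31 and 2.15. H4c4 fell by 2.93 and 2.44, but it belongs to a family of near-identical histone genes and its probes may read several of them. In all 10 of these genes every probe was also lower than in naive mice within the run, with log2 changes of -4.87 to -0.69 (adjusted p of at most 0.00713). Jakmip3, a microtubule-binding protein gene, fell by 3.65 ± 0.14 and 2.01 ± 0.18 against exposed mice and by 0.95 and 0.69 against naive mice. Its probe at chr7:146211870-146212469 read 6.15, 6.12, 6.39 and 6.25 on fear arrays and 9.22 to 10.14 on exposed arrays (median 9.96).

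**Figure D1:**
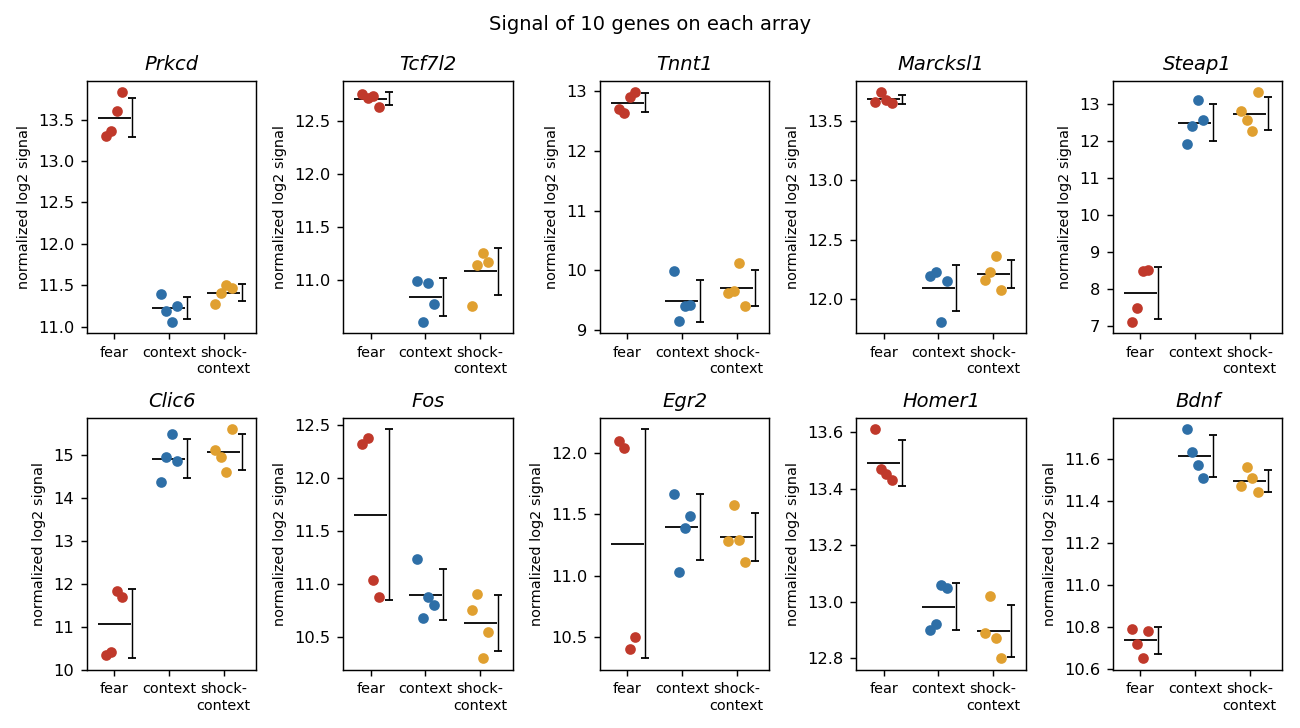
Normalized log2 signal (vertical axis, own scale in each panel) of 1 probe for each of 10 genes on every fear, context and shock-context array; lines are group means and bars show 1 SD (n = 4 arrays per group). Prkcd, Tcf7l2, Tnnt1, Marcksl1 and Homer1 lie above and Steap1, Clic6 and Bdnf below all exposed arrays, while the fear arrays of Fos and Egr2 fall into a high and a low pair.

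Of 641 genes with 4 or more probes, 13 were higher and 27 lower at all of them, while 393 (61.3%) were split between directions. Ube2q2, a ubiquitin-conjugating enzyme, rose at 4 probes, by 0.85 to 1.63. Nnt, the mitochondrial transhydrogenase, rose at 4 probes by 1.13 to 1.71, but against naive mice its probes gave 0.52, 0.33, -0.41 and -0.46. Srsf2, a splicing factor, rose at 4 probes by 0.44 to 1.02 and by 0.35 to 0.94 against naive mice.

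Among genes with all probes lower, Kcnq1ot1 and Taf1 had the most probes. Kcnq1ot1, a long noncoding RNA of an imprinted locus, fell at 6 probes (log2 changes -3.19 to -0.23), but its weakest probe missed the threshold in 6 of 34 alternatives (adjusted p = 0.0528 to 0.153), which were the omission of fear array 2, normexp background correction, the authors' deposited values, averaging of arrays 1 and 2, and 3 and 4, of each group, exposures of the slide named 6 alone, and removal of the trend on the base composition of probes. Taf1, a subunit of the general transcription factor TFIID, fell at 6 probes (-3.65 to -0.33). Its weakest probe missed the threshold without fear array 1 or 4, context array 1, 2 or 4, or shock-context array 1 or 2 (adjusted p = 0.0539 to 0.134), and with the arrays scaled to their 75th percentile (0.868) or median (0.933). The Taf1 call was also lost with these pairs averaged (0.0698), and with the pairs (0.122) or the slide (0.0674) as a random effect, in all in 15 of 34 alternatives. Trip11, a Golgi microtubule-associated protein, fell at 5 probes (-3.52 to -0.44), and so did Ankrd26, an ankyrin repeat protein (-3.97 to -0.52). With 75th percentile scaling 1 or more probes of each missed the threshold (highest adjusted p = 0.502 for Trip11 and 0.348 for Ankrd26), and each call was lost in 3 of 34 alternatives.

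The immediate early genes gave a mixed picture against the exposures. Fos, the activity marker gene of the AP-1 factor, read 12.32, 12.38, 11.04 and 10.88 on fear arrays and 10.30 to 11.24 on exposed arrays (median 10.78; probe at chr12:86817900-86817959). Fear arrays 1 and 2 lay above all exposed arrays and fear arrays 3 and 4 within their range. Fos was 1.86-fold higher (log2 change 0.89 ± 0.27, adjusted p = 0.0088), and missed the threshold when these array pairs of each group were averaged (0.058). Against naive mice Fos was higher by 2.55. Fosb, its close relative, read 9.87, 10.12, 10.23 and 9.96 on fear arrays and 8.04 to 9.20 on exposed arrays (median 8.64), a rise of 1.38 ± 0.19 without overlap. Against naive mice Fosb was at 0.30 (adjusted p = 0.195).

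Npas4, a transcription factor of inhibitory synapse formation, read 10.20, 10.23, 9.71 and 9.63 on fear arrays and 9.03 to 9.37 on exposed arrays (median 9.18). It rose by 0.76 ± 0.11 without overlap and was at -0.09 against naive mice (adjusted p = 0.706). Arc, a regulator of AMPA receptor trafficking, read 15.50, 15.54, 14.81 and 14.73 on fear arrays and 14.29 to 15.07 on exposed arrays (median 14.73). The groups overlapped, and the difference of 0.42 ± 0.18 missed the threshold (adjusted p = 0.0521). Arc passed without fear array 3 (0.0281), fear array 4 (0.0182), context array 1 (0.0346) or context array 2 (0.038), and in 11 of 34 alternatives in all. Within the first run Arc was at 0.70 against naive mice.

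Egr2, a zinc finger transcription factor, read 12.10, 12.04, 10.40 and 10.5 on fear arrays and 11.03 to 11.67 on exposed arrays (median 11.34). Its fear arrays fell on both sides of the exposed arrays, with a mean difference of -0.09 ± 0.29 (adjusted p = 0.788). Egr1 differed by 0.24 ± 0.16 (adjusted p = 0.192), Nr4a1, an orphan nuclear receptor, by 0.30 ± 0.20 (0.206) and Dusp1, a MAP kinase phosphatase, by 0.17 ± 0.13 (0.267). Egr1 and Nr4a1 passed without fear array 3 (adjusted p = 0.048 and 0.0316), and Egr1 and Dusp1 with the authors' deposited values (0.023 and 0.0195). Egr1 also passed with normexp background correction (0.0383) and with the trend on base composition removed (0.012). Junb, another AP-1 gene, had overlapping probes at 0.51 ± 0.14 (adjusted p = 0.00585) and -0.03 ± 0.14 (0.86). Within the first run the changes against naive mice were 1.49 for Egr2, 0.76 for Egr1, 0.58 for Nr4a1 and 0.49 for Dusp1. Junb was at 1.02 there, as a mean over its probes. At 9 of the 10 probes of Fos, Fosb, Junb, Arc, Egr1, Egr2, Npas4, Nr4a1 and Dusp1 the mean of fear arrays 1 and 2 was above that of fear arrays 3 and 4, with differences over the 10 probes of -0.1 to 1.62.

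Over the 27 early transcription factors measured, 8 were higher and 7 lower (29.6 and 25.9%, against 31.3 and 19.6% of all genes). Their median change was 0.08, beside 0.08 over all genes. Myc, a growth transcription factor, rose at all 3 of its probes, by 1.00 to 1.43. Of 29 early effectors and feedback regulators 5 were higher and 4 lower (17.2 and 13.8%). Of 26 later activity-regulated genes 4 were higher and 7 lower (15.4 and 26.9%). Nrn1, a secreted neurite growth factor of the early effectors, rose by 0.68 ± 0.08, and Inhba, an activin subunit of the same list, fell by 0.96 ± 0.12.

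Homer1, whose short transcript is activity-induced while the long one encodes a postsynaptic scaffold, differed along its length. The probe farthest downstream (chr13:94173265-94173324) read 13.61, 13.47, 13.45 and 13.43 on fear arrays and 12.80 to 13.06 on exposed arrays (median 12.91). It rose by 0.55 ± 0.07 without overlap, while the 2 probes farther upstream overlapped between groups and were at 0.01 ± 0.10 and -0.13 ± 0.13. All 3 Homer1 probes rose against naive mice, by 0.73 to 1.05. Bdnf, the neurotrophin gene, read 10.79, 10.72, 10.65 and 10.78 on fear arrays and 11.44 to 11.74 on exposed arrays (median 11.54) at chr2:109566470-109566529. It fell by 0.82 ± 0.07 there and by 0.55 ± 0.08 at its second probe, with falls of 0.29 and 0.22 against naive mice.

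Of 22 genes induced by glucocorticoids, the stress hormones, 0 were higher and 7 lower (0 and 31.8%, against 31.3 and 19.6% of all genes). Their median change was -0.27 against exposed mice and 0.13 against naive mice. Sgk1, a kinase induced by stress hormones, read 14.90, 14.80, 14.48 and 14.55 on fear arrays and 15.13 to 15.68 on exposed arrays (median 15.41). At the 1 probe kept Sgk1 fell by 0.72 ± 0.10 without overlap, and rose by 0.46 against naive mice (adjusted p = 0.00522). With dimmer probes admitted the sign turned. The mean change of Sgk1 against exposed mice was then 0.158 with no filter and 0.129 with the filter at 4 of 12 arrays. Plin4, a lipid droplet protein, fell by 1.36 ± 0.11 against exposed mice, and Nfkbia, an inhibitor of NF-kappaB, by 0.85 ± 0.12. Cebpd, a transcription factor, fell by 0.56 ± 0.08. Within the first run Plin4, Nfkbia and Cebpd were at -0.53, -0.04 and -0.58 against naive mice.

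Kinases tied to memory storage rose more often than they fell. Of 39 measured, 20 were higher and 3 lower (51.3 and 7.69%, against 31.3 and 19.6% of all genes). Their median change was 0.37, beside 0.08 over all genes. Within the run their median was 0.53. Prkca, protein kinase C alpha, read 11.17, 11.23, 11.09 and 10.99 on fear arrays and 10.10 to 10.29 on exposed arrays (median 10.24; chr11:107800035-107800094). It was 1.87-fold higher without overlap (0.91 ± 0.07, adjusted p = 7.1e-08) and rose by 1.38 against naive mice. Mapk3, the ERK1 kinase, rose by 0.66 and 0.64 (call lost with the trend on base composition removed, adjusted p = 0.118). Camk1d, a calcium/calmodulin-dependent kinase, fell at 3 probes (-2.47, -0.85 and -0.54). The weakest Camk1d probe missed the threshold with 75th percentile scaling (adjusted p = 0.424) or median scaling (0.262). Prkcd, the strongest riser of this list, is also in the thalamus list.

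Synaptic genes moved in both directions, as did all genes (31.3% higher and 19.6% lower). Of 45 presynaptic release genes 17 were higher and 6 lower (37.8 and 13.3%), and 10 were split between probes. Of 46 glutamate receptor and postsynaptic density genes 17 were higher and 9 lower (37 and 19.6%), and 10 were split. Snap25, a SNARE of the plasma membrane, read 15.83, 15.87, 15.45 and 15.32 on fear arrays and 14.44 to 14.90 on exposed arrays (median 14.62) at its brightest rise. It rose at 3 probes, by 1.00 ± 0.12, 0.62 ± 0.08 and 0.58 ± 0.09. The vesicle SNARE gene Vamp2 rose at 3 probes by 0.72 to 0.79, while Rab3c, a vesicle GTPase, fell by 1.05 and 1.00 and Dnm3, a dynamin of endocytosis, by 1.45 and 1.41.

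Ddn, the dendritically localized dendrin, read 15.41, 15.37, 14.84 and 15.22 on fear arrays and 14.06 to 14.79 on exposed arrays (median 14.36), a rise of 0.80 ± 0.14 beside 2.30 against naive mice. Dlg4, which encodes the scaffold PSD-95, rose by 0.70 ± 0.10 and 0.67 ± 0.11. The AMPA receptor subunit gene Gria2 fell at 3 probes, by 0.78, 0.65 and 0.33. Its weakest probe missed the threshold without fear array 1 (adjusted p = 0.109) or fear array 2 (0.11), and in 7 of 34 alternatives in all. With the trend on base composition removed the mean change of Gria2 was -0.36, against -0.59 with it, and the weakest probe had an adjusted p of 0.988. Within the first run the mean change of Gria2 against naive mice was 0.56, of the opposite sign.

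Of 45 formins and actin regulators 14 were higher and 5 lower (31.1 and 11.1%, against 31.3 and 19.6% of all genes). Fmn2, an actin-nucleating formin, rose by 0.47 ± 0.10 at 1 probe and was at 0.26 ± 0.12 at the other (adjusted p = 0.0785). Without context array 1 or shock-context array 4 both Fmn2 probes passed (higher adjusted p = 0.0458 and 0.0405), as they did with 75th percentile (0.0229) or median scaling (0.0313). Within the run the Fmn2 probes went apart, at 0.80 and -0.58 against naive mice. Cttnbp2, a cortactin-binding protein of dendritic spines, rose at 3 probes by 0.58 to 1.75, and the formin Fmnl1 rose by 1.25 and 1.23. Diaph2, another formin, fell at 3 probes by 1.75 to 2.10, although 1 of them rose by 0.85 against naive mice.

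Of 30 histone deacetylases and partners 9 were higher and 3 lower (30 and 10%), and 6 were split. Of 25 acetyltransferases 6 were higher and 4 lower (24 and 16%), and 5 were split. Over all genes 31.3% were higher and 19.6% lower. Hdac4, a deacetylase that shuttles out of the nucleus on activity, was at 0.11 ± 0.08 (adjusted p = 0.257, but 0.0106 with normexp background correction, 0.00303 with the authors' deposited values and 0.00188 with the trend on base composition removed) and rose by 1.20 against naive mice. The class I deacetylase gene Hdac3 rose by 0.70 ± 0.07. The acetyltransferase Kat6b rose by 0.82 and 0.61. Ep300, the p300 acetyltransferase, rose by 1.51 and 1.14 at the 2 probes kept, and its mean over all 4 probes on the array was -0.50.

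Genes that mark the choroid plexus, which secretes the fluid of the ventricles, fell. Of 26 measured, 22 were lower and 1 higher (84.6 and 3.85%, against 19.6 and 31.3% of all genes), with a median of -2.48. Only Slc4a5, a bicarbonate transporter, was higher (0.62). Ttr, the transthyretin carrier made in this epithelium, read 9.88, 9.62, 11.77 and 12.26 on fear arrays and 15.19 to 16.52 on exposed arrays (median 15.78). It was 31.5-fold lower in fear-conditioned mice (-4.98 ± 0.44, adjusted p = 3.77e-07). The summed signal of the list was 15.74 to 16.31 on fear arrays, 18.12 to 18.55 on naive arrays and 17.71 to 18.79 on exposed arrays, in log2 units. Fear against naive mice gave a median of -2.42, and naive against exposed mice -0.07. Steap1, Clic6, Col8a1 and Cab39l, a kinase scaffold gene that fell by 0.48 to 1.18, belong to this list. In whole tissue fewer cells of a type and less RNA per cell cannot be told apart.

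Ependymal markers, from the ciliated cells lining the ventricles, were lower in 12 of 15 and higher in 0 (80% and 0%). Their summed signal was 14.58 to 15.03 on fear arrays, 15.70 to 15.95 on naive arrays and 15.22 to 15.90 on exposed arrays. Mia, a secreted cartilage and melanoma protein, fell at 3 probes by 1.35 to 1.64, and Tekt1, a ciliary tektin, by 1.32 and 1.26. Of 26 thalamus markers 10 were higher and 1 lower (38.5 and 3.85%, against 31.3 and 19.6% of all genes), with 5 split and a median of 0.32. Their summed signal was 17.40 to 17.44 on fear arrays, 16.86 to 17.08 on naive arrays and 16.93 to 17.05 on exposed arrays. A sum above all exposed arrays was not particular to this list. Hippocampal excitatory neuron markers summed to 19.28 to 19.35 on fear and 18.95 to 19.14 on exposed arrays. Interneuron markers were at 18.62 to 18.86 against 18.33 to 18.49, and striatum markers at 16.29 to 16.34 against 15.91 to 16.20. Neocortex markers overlapped (18.45 to 18.56 against 18.44 to 18.52). Tnnt1, a slow troponin T found in thalamus, read 12.71, 12.64, 12.90 and 12.98 on fear arrays and 9.15 to 10.12 on exposed arrays (median 9.52), a rise of 3.22 ± 0.16 without overlap. Prkcd and Tcf7l2 are in the thalamus list. The part of these bordering tissues in the other changes was not tested.

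Astrocyte markers were higher in 9 of 25 and lower in 0 (36 and 0%, against 31.3 and 19.6% of all genes), with a median of 0.11. Their summed signal was 20.66 to 20.83 on fear arrays, 20.45 to 20.52 on naive arrays and 20.49 to 20.61 on exposed arrays. In 5 others some probes fell past the threshold and none rose past it, in 1 the reverse held, and 2 were split. Among the partly lower ones, Slc1a2 was at -1.09 to -0.12 over its 4 probes and Glul at -0.90 to -0.12 over 3. Gfap, the intermediate filament of astrocytes, read 14.59, 14.61, 15.12 and 15.01 on fear arrays and 13.65 to 13.83 on exposed arrays (median 13.71) at chr11:102751813-102751872. It rose at 3 probes, by 1.10 ± 0.10, 0.97 ± 0.16 and 0.74 ± 0.12. Ntsr2, a neurotensin receptor of astrocytes, rose by 0.97 and 0.50 (1 probe lost with that trend removed, adjusted p = 0.248), and the clusterin gene Clu by 0.61. Of 31 microglia and complement genes 10 were higher and 4 lower (32.3 and 12.9%), and the complement gene C4b was at 0.05 ± 0.10 (adjusted p = 0.678). Hippocampal excitatory neuron markers were higher in 10 and lower in 7 of 37 (27 and 18.9%).

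Antigen presentation and interferon genes were lower in 19 of 35 and higher in 2 (54.3 and 5.71%, against 19.6 and 31.3% of all genes). Their median was -0.34, and -0.35 against naive mice. The MHC class II gene H2-Aa fell by 1.18 and 1.12. H2-Ab1, its partner chain, fell at 4 probes, by 1.31, 1.23, 0.66 and 0.45. At least 1 H2-Ab1 probe missed the threshold without any 1 of the fear arrays, context array 2 or 4, or shock-context array 1 or 4 (highest adjusted p = 0.0515 to 0.127), and with the replicate number (0.054), the slide (0.0902) or these array pairs (0.177) as a block. In all the H2-Ab1 call was lost in 14 of 33 alternatives. Of 35 endothelial and mural markers 14 were lower and 7 higher (40 and 20%). Flt1, a VEGF receptor, fell at 3 probes by 0.58 to 1.18, but not at all 5 of its probes when dim ones were admitted (highest adjusted p = 0.946). Cldn5, a tight junction claudin, rose by 1.17, but was at -0.07 against naive mice. Ribosomal protein genes were lower in 27 and higher in 6 of 80 (33.8 and 7.5%). Oxidative phosphorylation genes were lower in 28 and higher in 15 of 77 (36.4 and 19.5%). Rpl36a fell at 3 probes by 0.56 to 0.77.

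**Figure D2:**
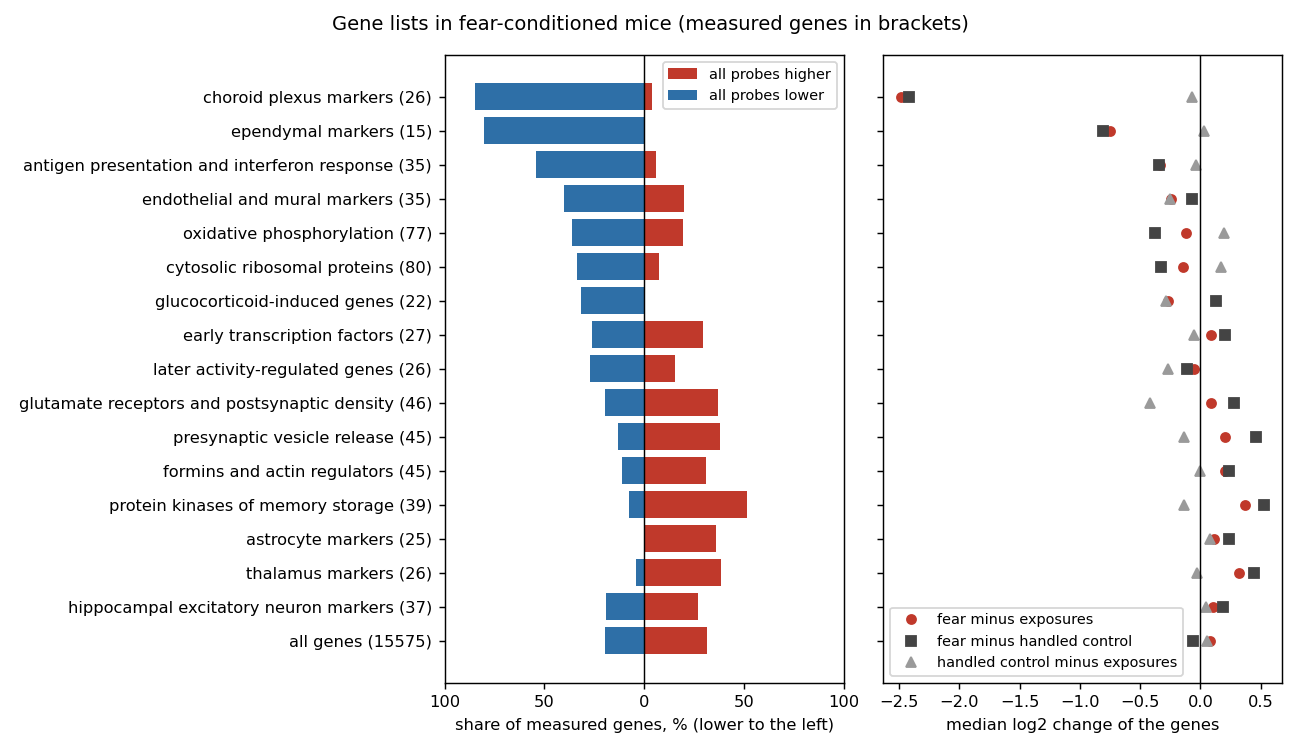
Left, share of the measured genes of each list (number in brackets) whose probes all rose (to the right) or all fell (to the left) in fear-conditioned against exposed mice, in percent. Right, median log2 change of the genes for fear against exposed, fear against handled naive, and naive against exposed mice; choroid plexus markers lie at -2.48, -2.42 and -0.07.

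The genes whose probes disagreed most are shown with sequences, because their opposite readings come from the same arrays. Aff3, a nuclear regulator of transcription elongation, fell at an upstream probe and rose at a downstream one. Ckap5, a microtubule polymerase, did the same. In the 60-base probes below, capitals mark G and C, each probe joins exons, and coordinates are mm9.
Aff3 upstream, chr1:38264857-38266438, minus strand: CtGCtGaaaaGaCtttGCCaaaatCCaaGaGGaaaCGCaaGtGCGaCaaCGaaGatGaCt
Aff3 downstream, chr1:38236364-38238112, minus strand: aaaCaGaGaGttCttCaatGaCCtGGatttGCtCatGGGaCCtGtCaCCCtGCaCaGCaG
Ckap5 upstream, chr2:91401054-91402954, plus strand: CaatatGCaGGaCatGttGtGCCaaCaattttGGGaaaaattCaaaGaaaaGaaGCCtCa
Ckap5 downstream, chr2:91455519-91455992, plus strand: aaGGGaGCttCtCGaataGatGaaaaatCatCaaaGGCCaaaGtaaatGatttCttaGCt
Of their 60 bases, 27 and 30 are G or C in the Aff3 probes and 22 and 21 in the Ckap5 probes.

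The upstream Aff3 probe read 7.46, 7.33, 7.49 and 7.52 on fear arrays and 11.16 to 12.56 on exposed arrays (median 12.39). It fell by 4.79 ± 0.21, with no overlap, and by 2.81 against naive mice. The downstream Aff3 probe read 9.43, 9.65, 9.80 and 9.56 on fear arrays and 7.79 to 9.02 on exposed arrays (median 8.40). It rose by 1.20 ± 0.20, again with no overlap, and was at 0.12 against naive mice (adjusted p = 0.647).

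The upstream Ckap5 probe read 6.67, 6.59, 6.87 and 7.01 on fear arrays and 11.18 to 12.31 on exposed arrays (median 12.13), a change of -5.22 ± 0.18. The downstream Ckap5 probe read 11.69, 11.64, 12 and 12 on fear arrays and 10.91 to 11.52 on exposed arrays (median 11.24), a rise of 0.61 ± 0.11. Neither pair of groups overlapped, and another probe between them fell by 0.94 ± 0.32. The same genes in naive mice gave changes against exposed mice of -1.89 and 1.03 for the upstream and downstream Aff3 probes and of -2.40 and -0.84 for the Ckap5 probes.

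In the other genes with the widest gap a deep fall also lay upstream of a rise, but the most downstream probe did not always rise. Golgb1, a Golgi tether, fell by 5.66 and 4.01 at 2 upstream probes and rose by 0.28 and 0.34 at 2 farther downstream, with its most downstream probe at 0.18 (adjusted p = 0.108). Ddx46, a splicing helicase, fell by 5.18 and rose by 0.55, while its 2 most downstream probes were at -0.17 and 0.17 (adjusted p = 0.167 and 0.116). Zbtb7a, a transcription repressor, fell by 5.05 upstream, rose by 0.37 in the middle and fell by 0.89 at its most downstream probe. Myo6, an unconventional myosin, fell by 4.60 and rose by 1.13, with its most downstream probe at -0.17 (adjusted p = 0.141). Slk, a kinase, fell by 4.29, rose by 1.22 and fell by 0.38 at its most downstream probe. R3hdm1, an RNA-binding domain gene, fell at 2 probes (-4.18 and -3.44) and rose by 0.54 to 1.31 at its 4 other probes, 1 of which lies upstream of the deeper fall.

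Agreement between probes of a gene depended on how close they lay. The share of probe pairs with changes of the same sign was 82.6% for probes under 60 bp apart (311 pairs) and 51.2% for probes over 10000 bp apart (5348 pairs). The median absolute difference between the changes of a pair was 0.17 at the short end and 0.79 at the far end, on the log2 scale. Within the first run the shares were 82.6 and 51%. Pairs of 1 gene share arrays and are not independent, so these are descriptions.

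**Figure D3:**
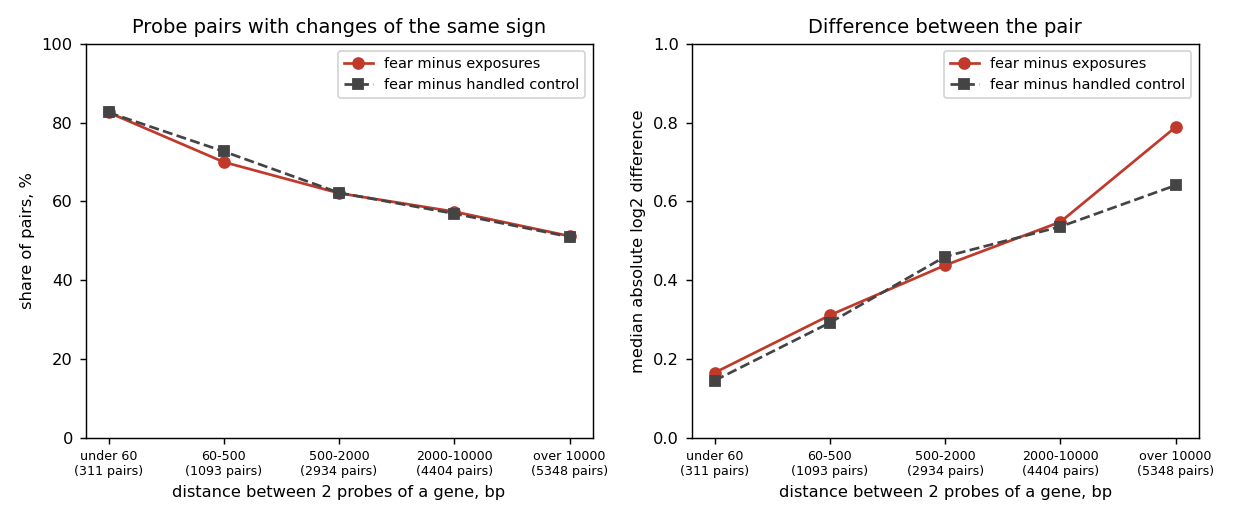
Pairs of probes of the same gene by the distance between them in bp (horizontal axis, number of pairs in brackets). Left, share of pairs with changes of the same sign in percent; right, median absolute difference of the log2 changes. The share declines to 51.2% beyond 10000 bp for fear against exposed mice and to 51% for fear against handled naive mice.

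Probes lying far upstream fell more often than they rose. Of the probes lying over 50000 bp upstream of a gene's most downstream probe, 20.4% were higher in fear-conditioned mice and 55.3% lower (965 probes). The probes placed by distance came from 7834 genes, more than the 6784 with at least 2 kept probes. Genes with 1 kept probe are therefore included. Of the most downstream probes themselves 39.2% were higher and 28.7% lower (7371 probes). The median change was -0.42 for the far upstream probes and 0.07 for the most downstream ones. Of 1321 pairs called in opposite directions and lying over 10000 bp apart, the upstream probe was the lower one in 1036 (78.4%), but in 35 of 103 (34%) lying under 500 bp apart.

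**Figure D4:**
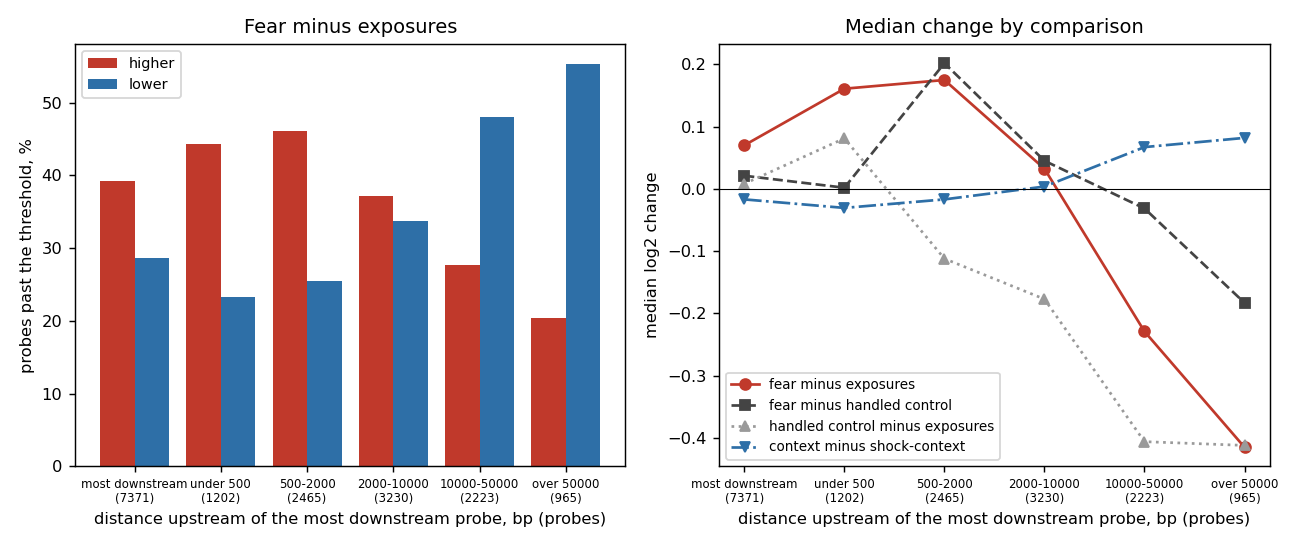
Probes of genes with several probes, by distance in bp upstream of the gene's most downstream probe (number of probes in brackets). Left, percent of probes higher or lower in fear-conditioned against exposed mice; right, median log2 change in 4 comparisons. Beyond 50000 bp the median is -0.42 for fear against exposed, -0.18 for fear against handled naive, -0.41 for naive against exposed and 0.08 for context against shock-context mice.

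Each array was summarised by the median difference in log2 signal between the most upstream and the most downstream probe, over 2294 genes with probes at least 10000 bp apart. The value was -2.95, -2.95, -2.95 and -2.94 on fear arrays, -2.99, -2.97, -2.69 and -2.83 on naive arrays, and -2.72 to -2.43 on exposed arrays (median -2.49). Fear and exposed arrays did not overlap and differed by -0.43 (exact two-sided permutation test, p = 0.00202, the smallest that 495 splits allow). Naive and exposed arrays differed by -0.36 (exact p = 0.00404), with naive array 3 inside the exposed range. Fear and naive arrays differed by -0.08 and overlapped (exact p = 0.429). Shock-context array 4 had the lowest exposed value, -2.72.

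**Figure D5:**
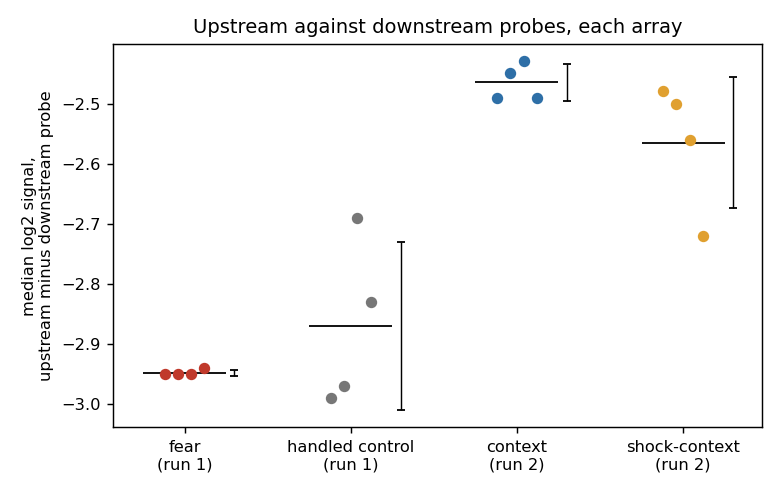
Median log2 difference between the most upstream and the most downstream probe of 2294 genes on every array of the 4 groups aged 3 months. Lines are means and bars show 1 SD (n = 4 arrays per group). The plotted arrays of the first run lie at -2.99 to -2.69 and those of the second run at -2.72 to -2.43.

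The changes also varied with the base composition of the probes. The median change was -0.57 for the 877 probes with at most 30% G and C, and 0.49 for the 255 probes with 55 to 60%, but -0.02 for the 159 probes above 60%. Within the first run these bins were at 0.16, -0.29 and -0.43, and between naive and exposed mice at -0.77, 0.61 and 0.42. In 1600 of the 2452 opposite pairs that differ in composition the higher probe was the one richer in G and C (65.3%). With the trend on base composition removed from every array, C4b was at -0.37 (adjusted p = 0.000888), beside 0.05 without that step. The part of probe position in the change of any named gene was not tested.

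The exposures were also taken apart. Against context mice 19976 probes passed (67.3%), 10813 of them higher and 9163 lower, and against shock-context mice 19127 (64.4%), 10228 higher and 8899 lower. Both use the same 4 fear arrays. Prkcd rose by 2.31 against context mice and by 2.12 against shock-context mice, Tcf7l2 by 1.87 and 1.63 at its brightest probe, and Steap1 changed by -4.59 and -4.83. Fos differed by 0.76 against context mice (adjusted p = 0.0469) and by 1.03 against shock-context mice (0.0115). Arc was at 0.24 against context mice (adjusted p = 0.281) and rose by 0.59 against shock-context mice (0.0161), and whether these 2 differences differ is the comparison of the exposures themselves.

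Context and shock-context mice were compared directly, in the same run and on the same slides. By limma 0 probes passed (0%), while 2284 had an unadjusted p under 0.05. With the slide as a block 0 passed and 3914 had an unadjusted p under 0.05. Within the slide named 5 the counts were 0 and 2204, and within the slide named 6 they were 0 and 1697. With 4 arrays a group this does not show that the exposures act alike.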

How the data were processed

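Total RNA (600 ng per mouse, integrity number 9.0 to 10.0) was labelled with Cy3 and hybridised to 1-colour Agilent arrays, per the labels' protocols. The authors scanned the arrays with Agilent Feature Extraction 9.5.3.1, per the file headers, and deposited for each spot a processed intensity that is already background-subtracted. The deposited table holds log2 values of the authors, quantile normalized over 24 arrays as its values show, and was used as an alternative.

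Spots marked as outliers or controls were left out, spots of a probe were averaged, probes well above background on all 12 arrays were kept, and their log2 processed signal was quantile normalized. Fits used limma 3.58.1 (lmFit, eBayes) in R 4.3.3, two-sided, with Benjamini-Hochberg adjustment over 29704 probes and a threshold of 0.05: 2 groups for the main comparison (10 residual degrees of freedom), 3 group means for each exposure (9) and 16 arrays with the naive mice, normalized together (12). The SE is that of the fit. Gene symbols were updated through RefSeq (assembly GRCm38.p6): 25123 of 41174 probes matched by accession, 6333 by symbol and 1640 by synonym, and 8078 stayed without a symbol. Coordinates are those of build mm9 in the headers of the second run's files, used for all arrays because the first run's headers name another build.

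Members, gene lists and tests were chosen with earlier results of these data known. Named genes are the 10 largest rises and 10 largest falls among genes with at least 2 probes all called one way (ranked by the smallest change among a gene's probes), members of each list with the most called probes (up to 4), a fixed panel of activity, kinase and marker genes, the 8 genes with the widest gap between opposite probes, and those called one way at the most positions (4 each way). Not every gene so chosen is named. Replicate numbers showed no sign of pairing mice among fear, context and shock-context arrays: 0 of 12 same-numbered pairs had deviations correlated over 0.1 (range -0.412 to 0.0907). Same-numbered context and shock-context arrays lay on different slides, so for them the check cannot tell pairing from slide. Same-numbered fear and naive arrays shared a slide and were not part of this check. On simulated data for this comparison, 46 of 50 probes changed by 1 on the log2 scale were recovered, 41 of 50 at -1, 25 at 0.5 and 26 at -0.5. Of 29504 unchanged probes 5 were called. The simulated errors were independent between arrays and held no run difference, so these counts do not give the rate of false calls in the real comparison. Alternatives were other normalizations, background corrections, filters, probe choices, blocks and left-out arrays. Probes of the most downstream position, exposures of 1 slide and the removed base composition trend were added after seeing the data.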

Additional observations from a re-analysis of the deposited data

Results flagged for a closer look

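Dixon's test was applied to the 4 fear and the 8 exposed arrays at each of 34 named probes, 68 groups in all, and 3 groups held an array set apart from the others. Chance alone sets apart about 1 group in 20. At the upstream Tcf7l2 probe, fear array 1 read 8.08 and the nearest fear array 8.35, a gap of 0.871 of the group's range. At the upstream Aff3 probe, shock-context array 4 read 11.16 and the nearest exposed array 12.21, a gap of 0.75 of the range. At the Jakmip3 probe with the deeper fall, shock-context array 4 read 9.22 and the nearest exposed array 9.75, a gap of 0.576 of the range. All 3 probes still separated fear from exposed arrays without overlap.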

How the results depend on the processing

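The count of probes differing between fear and exposures was 17365 to 27896 of those tested under all settings that kept several probes per gene, except with only the probes above the median brightness, where fewer were tested (10388 against all exposures, 9883 against context and 9504 against shock-context). It was 10832, 10312 and 9875 with the brightest probe of each gene, and 10663, 10141 and 9709 with the most downstream probe, again with fewer probes tested. With no filter 1 probe passed between context and shock-context. The share of genes with all probes of 1 sign was 50.9%, and 48.2% with no filter, 49.2% with probes admitted from 4 of 12 arrays upward and 57.9% with the brighter probes; the cause was not tested. Leaving out 1 array gave 19832 to 21160 probes against all exposures, 18618 to 20080 against context, 17534 to 19796 against shock-context, 0 between context and shock-context, 452 to 492 called genes of the lists (480 with all arrays) and 50.6 to 51.3% agreement, and 15149 to 15993 probes for fear and 19068 to 19283 for naive mice in the 16-array fit. With the replicate number as a block the counts were 20086, 18755, 17948 and 0 with 50.9% agreement, and with the slide as replicate block 15782 for fear against naive mice; apart from H2-Ab1 and Arc it changed no call of a named gene. The median change of all probes was 0.05, and 0.13 with 75th percentile scaling, under which 60.1% of the called probes were higher, against 53.8%. That share was 56.7% with median scaling, 50.1% with the deposited values, 49.4% with quantile normalization before the filter and 49.5% with the base composition trend removed.

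Gene values here are means over the probes used, so a change of probes can turn them. Sgk1 was at 0.158 with no filter and 0.129 with the filter at 4 of 12 arrays, and Ep300 at -0.499 and -0.59, as a dimmer probe or probes entered. Aff3 was at 1.2 with the most downstream probe. Ckap5 was at 0.606 with the brighter probes, the brightest or the most downstream probe, R3hdm1 at 1.15, 1.31 and 1.31, and Zbtb7a at 0.372 with the brighter probes or the brightest probe. C4b was at -0.369 with the base composition trend removed; the cause was not tested.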

Other observations

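Over all genes 31.3% were higher and 19.6% lower in fear-conditioned mice. Of 22 genes of GABA receptors and inhibitory synapses, 5 were higher and 1 lower (22.7 and 4.55%), and 7 were split between probes. Of 47 voltage-gated ion channel genes 16 were higher and 9 lower (34 and 19.1%). Oligodendrocyte and myelin markers were higher in 9 and lower in 2 of 30 (30 and 6.67%). However, their summed log2 signal was 19.38 to 19.60 on fear arrays and 19.50 to 19.68 on exposed arrays, which overlap. Interneuron markers were higher in 9 and lower in 8 of 27 (33.3 and 29.6%). Neocortex markers were higher in 8 and lower in 5 of 29 (27.6 and 17.2%), and striatum markers higher in 4 and lower in 3 of 16 (25 and 18.8%). Cholesterol synthesis genes were higher in 8 and lower in 4 of 28 (28.6 and 14.3%). Heat shock and protein folding genes were higher in 7 and lower in 6 of 35 (20 and 17.1%). Neurogenesis and cell division genes were higher in 12 and lower in 10 of 30 (40 and 33.3%). Of 18 blood cell markers on the array 12 were measured, with 2 higher and 2 lower (16.7 and 16.7%).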
